A study of Mus musculus with 12 samples.

Results

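Expression of extracellular matrix genes was examined in 4 lines made from 393P, a mouse lung cancer cell line that the labels call epithelial and non-metastatic. The set comprised the collagen chains (genes named Col with a chain number), the lysyl oxidase-like genes, the lysyl, prolyl 4- and prolyl 3-hydroxylases, the thrombospondins, the fibulins, the latent TGF-beta binding proteins, and Serpinh1, Sparc, Fn1, Tnc and Vcan. Members were taken by symbol from the deposited table and numbered 52 of its 12208 genes. Of these, 51 had enough counts to be tested, and Col6a5, a type VI collagen chain, did not. Lox itself was not analysed here.

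The vector line carried GFP (label GFP_Vector) and was the negative control, and the other lines carried Zeb1, either wild type (WT) or in a form labelled deficient or mimetic. By its title, the series concerns acetylation of this transcription factor. All 4 lines were grown untreated in RPMI with fetal bovine serum. RNA was measured by QuantSeq 3' tag sequencing, which counts tags near the 3' end of transcripts, so a count is not scaled by transcript length. Each line had 3 libraries labelled as biological replicates, whereas the design text speaks of 2 replicates, and the sources used here do not settle that conflict. Each Zeb1 form was 1 line, and its promoter and clonality are not stated in the sources used here. The p-values rest on the spread between libraries of a line, so the Zeb1 form and other differences between lines cannot be told apart.

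Collagens are triple helices of chains that are hydroxylated on proline and lysine in the endoplasmic reticulum, folded with the chaperone Serpinh1 (HSP47), secreted, and crosslinked outside the cell by lysyl oxidases. Fibronectin, tenascin-C, versican, SPARC and the thrombospondins are glycoproteins and proteoglycans that bind collagen, cells or growth factors, and the fibulins and latent TGF-beta binding proteins (LTBPs) are parts of elastic fibres and microfibrils. Zeb1 represses epithelial genes in the epithelial-mesenchymal transition, a change of cell state in which carcinoma cells are known to alter the matrix they make.

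Library depth was 33.3 to 39 M counts for vector, 28.4 to 35.8 M for WT, 31 to 33 M for deficient and 24.4 to 27.5 M for mimetic. Levels are CPM, counts divided by the TMM-scaled library size, given as mean ± SD over n = 3 libraries. Fold changes, standard errors (SE) and Benjamini-Hochberg adjusted p-values are from edgeR's quasi-likelihood test over 12027 genes. A gene was called, and is said to have risen or fallen, at an adjusted p under 0.05. Zeb1 RNA was 31.2 ± 2.79 CPM for vector, 244 ± 6.87 for WT, 484 ± 13.1 for deficient and 228 ± 12.2 for mimetic. It was highest in deficient, with WT and mimetic near each other, and its part in the results was not tested. The epithelial cadherin Cdh1 was 670.1 ± 17.6 CPM for vector, 198 ± 4.42 for WT, 445 ± 16.7 for deficient and 287 ± 20.7 for mimetic, and the mesenchymal filament gene Vim was 5356 ± 371 CPM for vector, 5871 ± 189 for WT, 3940.0 ± 80.2 for deficient and 4764 ± 46.7 for mimetic. The summed level of 5 of 6 epithelial markers was 9052 to 10473 CPM for vector, 4166 to 4319.8 for WT, 7688 to 7816 for deficient and 5563 to 5735 for mimetic, and its part in the results was not tested. Of markers of cells that a culture should lack, 2 of 8 for fibroblast or mural cells (Pdgfra and Acta2), 1 of 6 for leukocytes (Cd68) and 3 of 5 for endothelium (Kdr, Pecam1 and Vwf) were in the table. The others were not analysed here. The fibroblast or mural sum was 0.726 to 0.922 CPM for vector, 0.534 to 1.04 for WT, 1.48 to 1.61 for deficient and 0.815 to 1.08 for mimetic. Pdgfra rose in deficient (log2 fold change 1.42, SE 0.39, adjusted p = 0.00358). Cd68, a lysosomal protein of macrophages, was 6.05 to 8.43 CPM for vector, 2.12 to 3.03 for WT, 4.58 to 6.38 for deficient and 3.75 to 4.07 for mimetic. It fell in WT (log2 fold change -1.48, SE 0.18, adjusted p = 4.01e-07) and mimetic (log2 fold change -0.82, SE 0.17, adjusted p = 0.000336). The endothelial sum was 0.317 to 1.45 CPM for vector, 0.849 to 1.53 for WT, 5.61 to 7.76 for deficient and 3.21 to 3.63 for mimetic. Most of it was Kdr, a VEGF receptor, which rose in deficient (log2 fold change 3.65, SE 0.30, adjusted p = 2.01e-09) and mimetic (log2 fold change 2.35, SE 0.33, adjusted p = 3.06e-06). Vwf also rose in mimetic (log2 fold change 1.75, SE 0.72, adjusted p = 0.0415). The part of these markers in the results was not tested. By the mean chi-square per gene between libraries of a line, library 3 stood apart in vector (13.9 and 21.5 beside 6.3 for libraries 1 and 2) and in deficient (17.3 and 23.9 beside 5.3). In RNA of whole cultures, fewer cells expressing a gene and less RNA per cell cannot be told apart.

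The set took under 1% of the counts in every line, with the lowest share in vector. Its share of all counts was 0.442% ± 0.00367 for vector, 0.495% ± 0.00671 for WT, 0.537% ± 0.0185 for deficient and 0.514% ± 0.0146 for mimetic (SD, n = 3). In vector, the type XVIII collagen gene Col18a1 made up 15.8% of the set's CPM, Ltbp1 15.7%, Col4a1 15.6% and Fn1 11.2%. The chains of type I collagen were scarce, with Col1a1 at 1.64 CPM and Col1a2 at 0.274 CPM in vector, while Col5a1, a fibrillar chain of type V collagen, stood at 48.5 CPM. The most abundant members were those of basement membranes and microfibrils and fibronectin, not of type I collagen.

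The plot of 19 members by library shows these levels for the genes described in full, which had at least 5 CPM in the highest line and a called change of at least 2-fold in some comparison, or were chosen by name (Fn1, Sparc, Tnc, Vcan, Serpinh1, Loxl2, Plod2, P4ha1 and P4ha2).

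**Figure D1:**
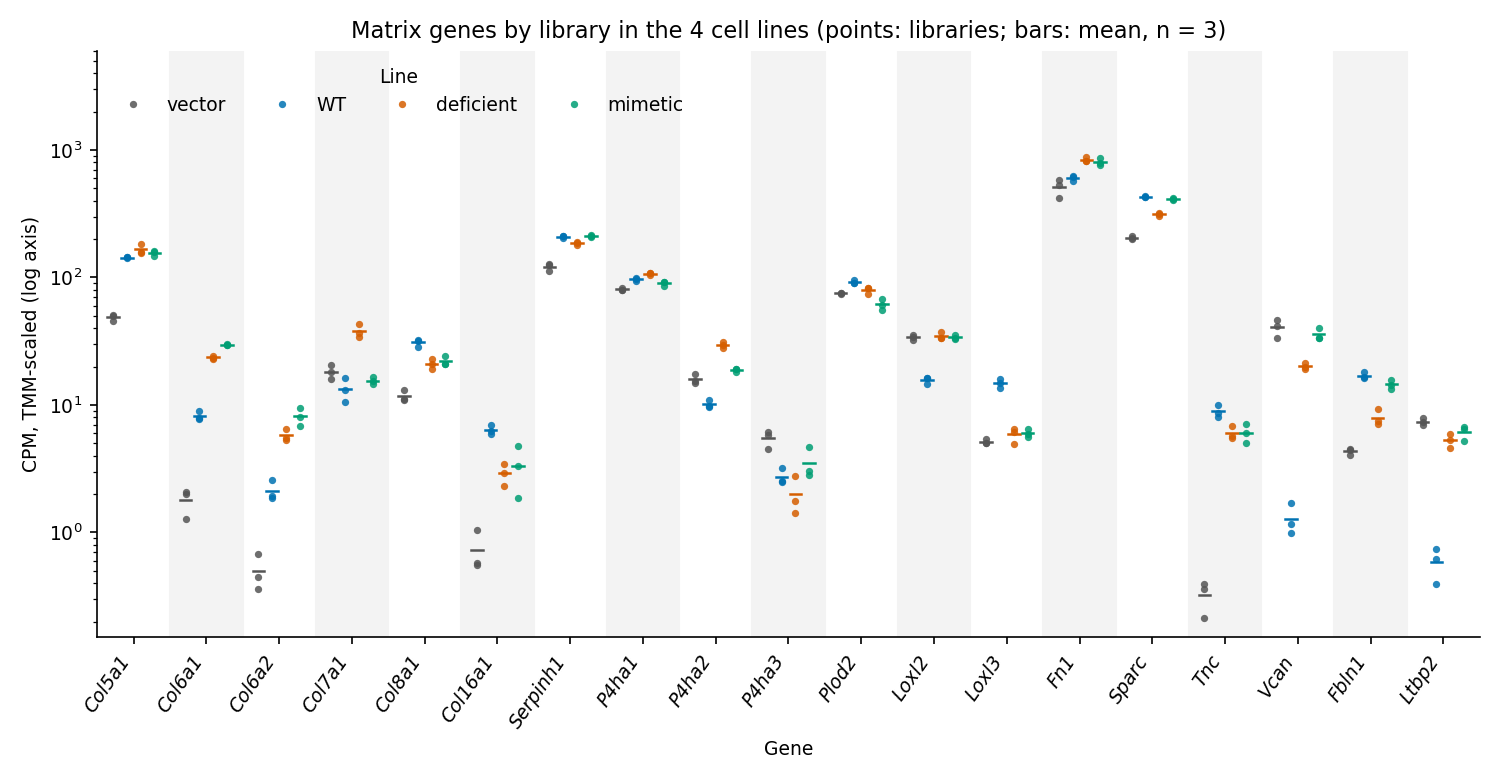
Level of 19 matrix genes in each library, in TMM-scaled CPM on a log axis, grouped by line (points are libraries, bars are means of 3). Tnc, Col6a1, Col6a2 and Col16a1 are lowest in vector, and Vcan and Ltbp2 are lowest in WT.

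Against vector, the 3 Zeb1 lines shared the vector libraries, so their comparisons are not independent. In WT, 19 of 51 members rose and 18 fell, beside 31% and 33.6% of all tested genes, and 11 rose and 9 fell at least 2-fold, beside 4.85% and 7.51%. In deficient, 24 rose and 8 fell, beside 28.4% and 29.8% of all genes, with 11 and 2 at least 2-fold, beside 5.56% and 2.98%. In mimetic, 24 rose and 9 fell, beside 28.6% and 30.9%, with 11 and 0 at least 2-fold, beside 5.47% and 3.89%. The share of members that rose at least 2-fold was 21.6% in each of the 3, several times the share of all genes. Part of it came from scarce genes, with Col11a1 and Thbs2 in WT at 0.55 and 0.792 CPM. In deficient, Col11a1, Col5a3, Col23a1, Thbs2 and Col4a6 averaged 0.66 to 1.4 CPM. In mimetic, Col11a1, Col12a1, Thbs2 and Col4a6 averaged 0.735 to 2 CPM. There Sparc and Col12a1 only just passed (2.003- and 2.004-fold), while Col6a3 did not (1.989-fold). Calls of Col11a1 and Thbs2 in WT, Col5a3, Col23a1 and Thbs2 in deficient and Col12a1 in mimetic were lost in some alternatives, as given below. Members and all genes were not compared at matched levels. Members lower by at least 2-fold made up 17.6% in WT, 3.92% in deficient and none (0 of 51) in mimetic. The falls in WT included Col4a4, Col20a1, Col15a1, Col27a1, Col12a1 and Col1a1, all at 2.55 CPM or less in vector. Calls of Col4a4, Col20a1 and Col12a1 were lost in some alternatives, as given below. In mimetic, Col27a1 fell 1.98-fold, just short of the minimum. Falls of Col20a1 in WT (2.013-fold) and Vcan in deficient (2.018-fold) only just passed, while P4ha3 in WT did not (1.999-fold). The median log2 fold change of the members was -0.03 in WT, 0.30 in deficient and 0.23 in mimetic, beside -0.01, 0.0041 and -0.0044 over all tested genes. Without vector 1 the median in deficient was 0.50, without mimetic 2 that in mimetic was 0.15, and with only genes of at least 5 CPM in 3 libraries the median in WT was 0.15 and 11 members fell. Without vector 3, which stood apart, 18 members rose and 20 fell in WT. In the same fit, 21 rose and 8 fell in deficient and 23 and 13 in mimetic. Without deficient 3, 22 rose and 8 fell in deficient. Shares of all genes in these alternative fits are not given here, so the counts show only how the members' calls moved.

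Between the Zeb1 lines, deficient and mimetic differed in the fewest members. Mimetic was higher than deficient for 15 members and lower for 11 (12.6% and 14.9% of all genes), of which 1 and 2 differed at least 2-fold (0.998% and 1.63%). These were Thbs2, higher, and Col7a1 and Col1a2, lower. The Thbs2 call was lost without deficient 1 or 3 or mimetic 1 or 2 (adjusted p = 0.0692 to 0.122). The Col1a2 call, on very low counts, was lost without deficient 3 or mimetic 2 or 3 (adjusted p = 0.0635 to 0.114). Mimetic was higher than WT for 20 and lower for 11 (23.1% and 21.8%), with 10 and 1 at least 2-fold (4.79% and 0.823%). Deficient was higher than WT for 25 and lower for 12 (27.5% and 26.3%), with 16 and 3 at least 2-fold (7.28% and 1.5%). The median difference was -0.04 for mimetic against deficient, 0.23 for mimetic against WT and 0.27 for deficient against WT on the log2 scale, beside 0.0042, 0.01 and 0.01 over all genes. With only genes of at least 5 CPM in 3 libraries, the median was 0.0608 for mimetic and 0.0658 for deficient against WT, and 13 and 15 members were higher. That filter tests fewer members, and the shares of all genes under it are not given here.

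**Figure D2:**
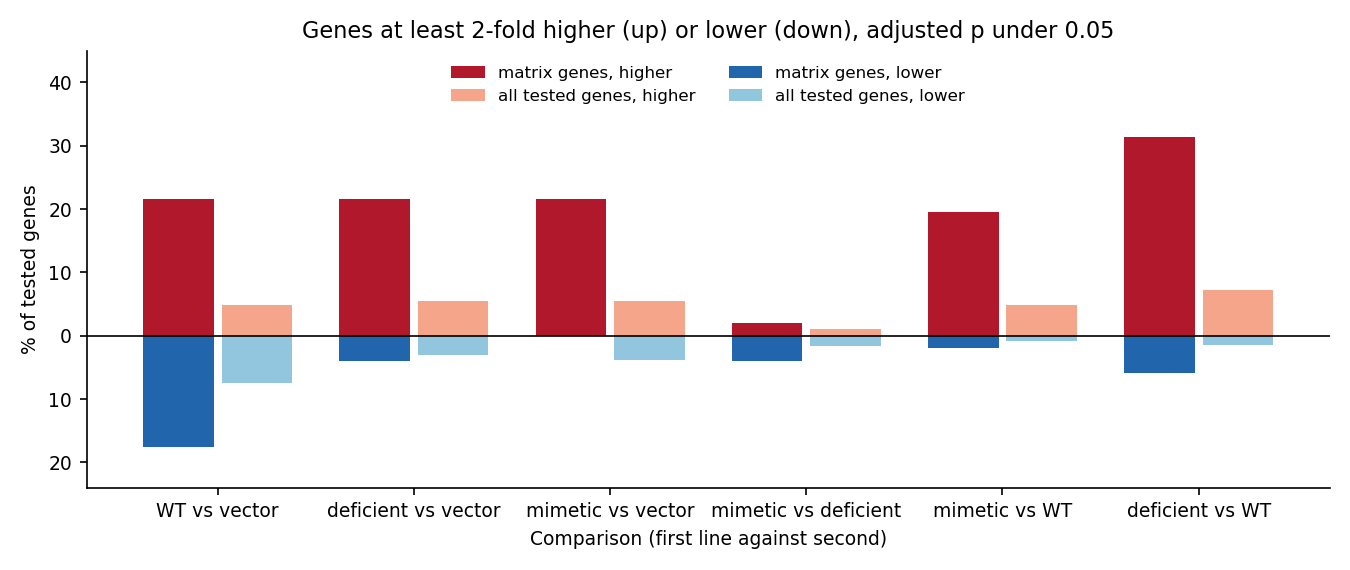
Percent of genes called at least 2-fold higher (bars up) or lower (bars down) in each of the 6 comparisons, for the 51 tested matrix genes beside all 12027 tested genes. The matrix bar for higher genes stands at 21.6% in all 3 comparisons with vector, where all genes reach at most 5.56%.

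The type VI collagen chains Col6a1 and Col6a2, which assemble into beaded filaments, rose in steps across the lines. The 2 genes lie on 1 strand of chromosome 10 with 85161 bases between them (Col6a1 chr10:76708792-76726168, Col6a2 chr10:76595762-76623630, GENCODE M21, GRCm38). Their promoter windows, 250 bases before to 50 after the start site from RefSeq (GRCm38.p6), are shown because the genes moved together (for Col6a2, 1 of 2 windows). Capitals mark the E-box letters CAGGTG and CAGGTA, the sequences that ZEB proteins are known to bind, searched on both strands (reverse complements CACCTG and TACCTG).
Col6a1 promoter, chr10:76725995-76726294, minus strand: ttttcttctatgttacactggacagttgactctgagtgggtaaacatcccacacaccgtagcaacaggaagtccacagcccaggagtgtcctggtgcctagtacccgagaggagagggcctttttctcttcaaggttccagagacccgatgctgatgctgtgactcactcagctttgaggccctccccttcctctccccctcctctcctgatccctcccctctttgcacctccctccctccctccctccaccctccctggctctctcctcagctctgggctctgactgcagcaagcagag
Col6a2 promoter, chr10:76623355-76623654, minus strand: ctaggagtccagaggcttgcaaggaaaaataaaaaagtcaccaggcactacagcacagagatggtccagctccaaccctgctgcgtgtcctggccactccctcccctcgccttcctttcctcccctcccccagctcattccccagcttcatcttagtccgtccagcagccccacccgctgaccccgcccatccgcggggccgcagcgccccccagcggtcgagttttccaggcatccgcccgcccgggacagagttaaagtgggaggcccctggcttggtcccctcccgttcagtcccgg
Neither window holds either motif, so no letters are capitalised, which says only that these letters are not in the windows.

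Col6a1 stood at 2, 2.09 and 1.27 CPM in the vector libraries, 7.87, 7.78 and 9.04 with WT, 23.5, 23 and 24.2 with deficient and 29.8, 29.6 and 29.8 with mimetic Zeb1. The 4 lines did not overlap, and the order was vector, WT, deficient, mimetic. Against vector, Col6a1 rose 4.64-fold (log2 fold change 2.22, SE 0.14, adjusted p = 1.43e-11) in WT, 13.3-fold (log2 fold change 3.74, SE 0.13, adjusted p = 1.89e-15) in deficient and 16.8-fold (log2 fold change 4.07, SE 0.13, adjusted p = 4.24e-16) in mimetic. Mimetic exceeded deficient by 1.26-fold (log2 fold change 0.34, SE 0.10, adjusted p = 0.0119), and deficient exceeded WT by 2.87-fold (log2 fold change 1.52, SE 0.10, adjusted p = 1.53e-10). Col6a2 stood at 0.363, 0.676 and 0.449 CPM in the vector libraries, 1.87, 2.57 and 1.92 with WT, 6.48, 5.53 and 5.36 with deficient and 6.9, 8.1 and 9.49 with mimetic Zeb1. These libraries again fell in the order vector, WT, deficient, mimetic without overlap. Col6a2 rose 4.31-fold (log2 fold change 2.11, SE 0.26, adjusted p = 4.70e-07) in WT, 11.7-fold (log2 fold change 3.54, SE 0.23, adjusted p = 5.55e-11) in deficient and 16.4-fold (log2 fold change 4.04, SE 0.23, adjusted p = 4.02e-12) in mimetic. The difference of mimetic from deficient was smaller (log2 fold change 0.50, SE 0.16, adjusted p = 0.0294) and its call was lost when any 1 of 4 libraries (deficient 2 or 3, mimetic 2 or 3) was left out, with log2 fold changes of 0.37 to 0.50 and adjusted p = 0.0679 to 0.162.

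Col6a1 tags outnumbered those of Col6a2 by a ratio of 3.81 ± 1.47 for vector, 3.98 ± 0.863 for WT, 4.1 ± 0.452 for deficient and 3.71 ± 0.59 for mimetic. The means of the ratio in the 4 lines differed by less than its SD in vector, while both levels rose. The third chain, Col6a3, is encoded on chromosome 1 and stood at 1.71 ± 0.673 CPM for vector, 1.76 ± 0.304 for WT, 1.82 ± 0.298 for deficient and 3.38 ± 0.268 for mimetic. It was called in mimetic against vector (log2 fold change 0.99, SE 0.25, adjusted p = 0.00185) and not in WT or deficient (adjusted p = 0.857 and 0.757), and mimetic was above deficient (log2 fold change 0.89, SE 0.25, adjusted p = 0.0108). Col6a5 had 5, 3 and 2 counts in the vector libraries and was not tested.

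**Figure D3:**
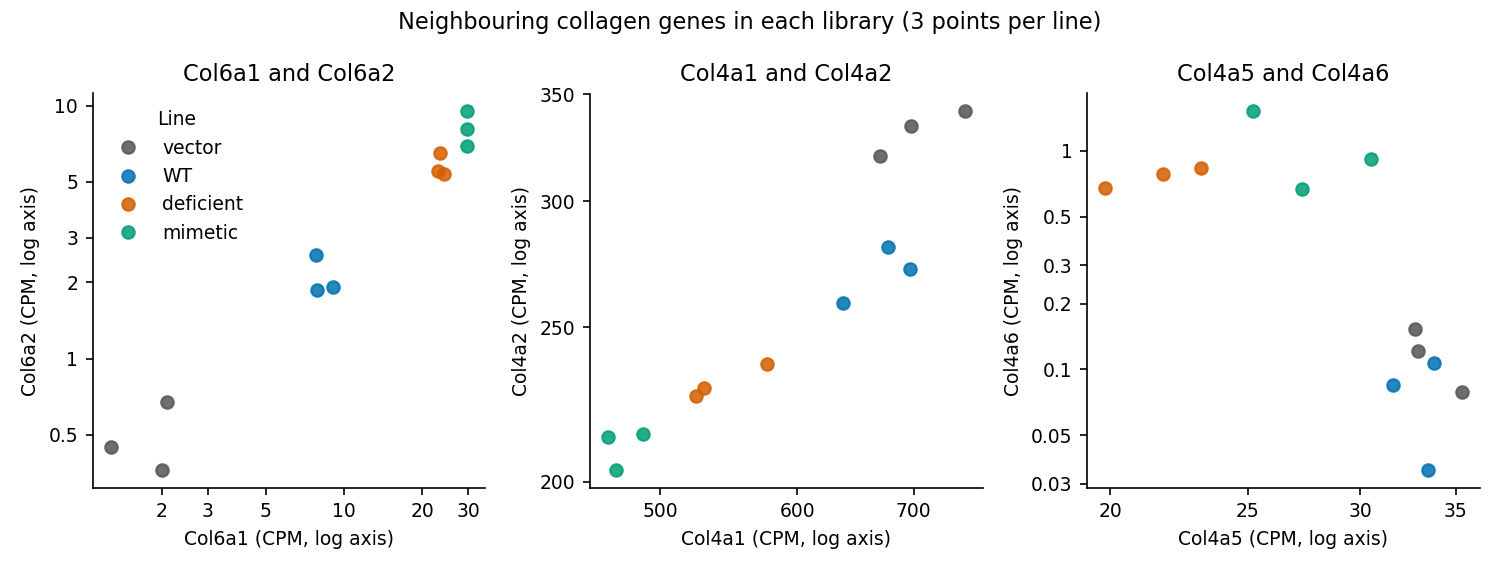
Levels of 3 pairs of neighbouring collagen genes in each of the 12 libraries, in CPM on log axes. Col6a1 and Col6a2 rise together from vector to mimetic, Col4a1 and Col4a2 are both lowest in mimetic, and Col4a6 is higher in deficient and mimetic, where Col4a5 is lower.

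Among the fibrillar collagens, Col5a1, a type V chain that is known to start fibril assembly, was the abundant one. It stood at 49.8, 45.2 and 50.7 CPM in the vector libraries, 143, 141 and 144 with WT, 158, 157 and 182 with deficient and 146, 159 and 161 with mimetic Zeb1. All 9 Zeb1 libraries were above all 3 vector libraries. Col5a1 rose 2.94-fold (log2 fold change 1.56, SE 0.06, adjusted p = 6.05e-15) in WT, 3.41-fold (log2 fold change 1.77, SE 0.06, adjusted p = 1.89e-15) in deficient and 3.2-fold (log2 fold change 1.68, SE 0.06, adjusted p = 3.58e-15) in mimetic. Deficient exceeded WT slightly (log2 fold change 0.21, SE 0.06, adjusted p = 0.00353). The other 6 tested chains were scarce, at most 2.55 CPM in any line. Of these, Col27a1 was highest in vector at 2.55 CPM and fell to 0.424 in WT (log2 fold change -2.58, SE 0.30, adjusted p = 1.97e-07), 1.69 in deficient (adjusted p = 0.0441) and 1.27 in mimetic (log2 fold change -0.99, SE 0.26, adjusted p = 0.00242). The deficient call was lost in 7 alternatives (adjusted p = 0.0557 to 0.166), among them DESeq2, the replicate block and the fits without vector 1 or 2 or without deficient 1 or 2. Col11a1, a type XI chain, rose in deficient from 0.241 to 1.4 CPM (log2 fold change 2.51, SE 0.40, adjusted p = 2.13e-05) and also in mimetic (log2 fold change 1.59, SE 0.44, adjusted p = 0.00416). In WT it reached 0.55 CPM, a call lost in 5 alternatives, among them the fits without vector 2 or 3 or without WT 1 or 2 (adjusted p = 0.0536 to 0.119).

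For type I collagen, Col1a1 was 1.64 ± 0.249 CPM for vector, 0.769 ± 0.14 for WT, 1.45 ± 0.418 for deficient and 1.63 ± 0.316 for mimetic. It fell in WT (log2 fold change -1.09, SE 0.29, adjusted p = 0.00276) and was not called in deficient (adjusted p = 0.591) or mimetic (adjusted p = 0.993). Col1a2 had as few as 1 count in a library, and Col11a2 was not called against vector in any line (adjusted p = 0.131, 0.657 and 0.132). Col5a3 was called in deficient alone of the 3 comparisons with vector, from 0.238 to 0.66 CPM (log2 fold change 1.47, SE 0.59, adjusted p = 0.0365), and that call was lost in 4 fits that left out vector 2 or 3 or deficient 2 or 3 (adjusted p = 0.0606 to 0.197), while without vector 1 its log2 fold change was 2.32.

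The abundant chains of type IV collagen, the network of basement membranes, were lower in deficient and mimetic. Col4a1 and Col4a2 start head to head on chromosome 8, their transcripts overlapping by 22 bases, so the start sites are close. The Col4a1 window is shown because it covers that divergent start region, and it holds neither E-box motif.
Col4a1 promoter, chr8:11312777-11313076, minus strand: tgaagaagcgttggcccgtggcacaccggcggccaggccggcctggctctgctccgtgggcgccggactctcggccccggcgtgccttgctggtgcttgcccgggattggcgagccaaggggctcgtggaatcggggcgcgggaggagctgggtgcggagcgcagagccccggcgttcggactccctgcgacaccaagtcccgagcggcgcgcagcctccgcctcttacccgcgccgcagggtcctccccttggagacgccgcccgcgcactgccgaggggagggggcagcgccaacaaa
Col4a1 stood at 697, 669 and 749 CPM in the vector libraries, 676, 637 and 697 with WT, 524, 529.9 and 576 with deficient and 472, 467 and 489 with mimetic Zeb1. Mimetic and deficient libraries were all below those of vector and WT. Col4a1 fell 1.3-fold (log2 fold change -0.38, SE 0.05, adjusted p = 1.35e-06) in deficient and 1.48-fold (log2 fold change -0.57, SE 0.05, adjusted p = 3.43e-09) in mimetic, and was not called in WT (log2 fold change -0.07, SE 0.05, adjusted p = 0.19). Col4a2 stood at 334, 320.3 and 342 CPM in the vector libraries, 281, 259 and 272 with WT, 226, 229 and 237 with deficient and 204, 214 and 214 with mimetic Zeb1. It fell in all 3 lines, by 0.30 on the log2 scale in WT (SE 0.04, adjusted p = 3.82e-06), 0.52 in deficient (SE 0.04, adjusted p = 1.68e-09) and 0.66 in mimetic (SE 0.04, adjusted p = 4.51e-11). The ratio of Col4a1 to Col4a2 was 2.12 ± 0.0607 for vector, 2.48 ± 0.0762 for WT, 2.35 ± 0.0667 for deficient and 2.26 ± 0.0687 for mimetic.

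Col4a5 and Col4a6, a divergent pair on chromosome X with 1308 bases between them, moved apart. Col4a5 was 33.7 ± 1.45 CPM for vector, 33 ± 1.18 for WT, 21.6 ± 1.68 for deficient and 27.7 ± 2.67 for mimetic, falling in deficient (log2 fold change -0.64, SE 0.08, adjusted p = 6.02e-07) and mimetic (log2 fold change -0.28, SE 0.08, adjusted p = 0.00365). Col4a6 had 4, 5 and 3 counts in the vector libraries, 1, 3 and 3 in WT, 26, 27 and 21 in deficient and 38, 18 and 26 in mimetic. Its rise was called in deficient (log2 fold change 2.68, SE 0.49, adjusted p = 0.000103) and mimetic (log2 fold change 3.10, SE 0.49, adjusted p = 1.42e-05) and rests on these low counts. Col4a4 fell in WT (log2 fold change -1.28, SE 0.50, adjusted p = 0.03), a call lost in 4 alternatives including the fits without vector 1 or 2 or WT 2 (adjusted p = 0.0733 to 0.193).

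Of the 10 other tested collagens, 2 rose and 5 fell in WT (31% and 33.6% of all genes), 4 rose and 0 fell in deficient (28.4% and 29.8%) and 3 rose and 1 fell in mimetic (28.6% and 30.9%). Col16a1, a fibril-associated collagen, stood at 0.575, 1.04 and 0.555 CPM in the vector libraries, 6.21, 5.91 and 6.91 with WT, 2.32, 3.45 and 2.95 with deficient and 4.75, 1.87 and 3.33 with mimetic Zeb1. WT was highest, vector was lowest, and deficient and mimetic overlapped in between. It rose 8.78-fold (log2 fold change 3.13, SE 0.29, adjusted p = 8.45e-09) in WT, 4.03-fold (log2 fold change 2.01, SE 0.31, adjusted p = 1.23e-05) in deficient and 4.58-fold (log2 fold change 2.19, SE 0.31, adjusted p = 3.93e-06) in mimetic, and was lower than WT in deficient (log2 fold change -1.12, SE 0.24, adjusted p = 0.000572) and mimetic (log2 fold change -0.94, SE 0.24, adjusted p = 0.00357). Col8a1, a short-chain network collagen of vessel walls, stood at 10.9, 11.2 and 13.1 CPM in the vector libraries, 32.4, 31.8 and 28.7 with WT, 19.1, 21.1 and 23.1 with deficient and 20.9, 20.9 and 24.1 with mimetic Zeb1. WT was again highest and vector lowest, with deficient and mimetic overlapping. Col8a1 rose 2.63-fold (log2 fold change 1.40, SE 0.09, adjusted p = 5.66e-11) in WT, 1.79-fold (log2 fold change 0.84, SE 0.10, adjusted p = 2.29e-07) in deficient and 1.87-fold (log2 fold change 0.90, SE 0.10, adjusted p = 8.29e-08) in mimetic.

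Col7a1, which forms the anchoring fibrils under epithelia, was high in 1 line. Its level was 20.7, 15.9 and 18.3 CPM in the vector libraries, 16.3, 13 and 10.5 with WT, 36.6, 34.1 and 43.2 with deficient and 16.6, 14.6 and 15.4 with mimetic Zeb1. The 3 deficient libraries were above all others, while vector, WT and mimetic libraries overlapped in part. Col7a1 rose 2.08-fold (log2 fold change 1.05, SE 0.12, adjusted p = 2.70e-07) in deficient and fell in WT (log2 fold change -0.46, SE 0.13, adjusted p = 0.00349), and was not called in mimetic against vector (log2 fold change -0.24, SE 0.13, adjusted p = 0.116). Without vector 2 it was called lower in mimetic (log2 fold change -0.33, adjusted p = 0.0392). Deficient was 2.86-fold above WT (log2 fold change 1.52, SE 0.13, adjusted p = 2.85e-09), and mimetic was 2.45-fold below deficient (log2 fold change -1.29, SE 0.12, adjusted p = 1.01e-07). Col18a1, the basement membrane collagen whose end fragment is endostatin, was with Col4a1 among the most abundant collagens and stood at 714 ± 44.7 CPM for vector, 566 ± 21.5 for WT, 720.4 ± 39.1 for deficient and 504 ± 19.1 for mimetic. It fell in WT (log2 fold change -0.33, SE 0.05, adjusted p = 7.04e-06) and mimetic (log2 fold change -0.50, SE 0.05, adjusted p = 3.54e-08) and was not called in deficient (log2 fold change 0.01, SE 0.05, adjusted p = 0.831).

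The remaining collagens of this kind were under 3 CPM. Col12a1 fell in WT, from 0.664 to 0.294 CPM (log2 fold change -1.15, SE 0.46, adjusted p = 0.0352), and rose in mimetic to 1.32 (log2 fold change 1.00, SE 0.38, adjusted p = 0.029). Both calls were lost in some fits, the first in 6 (limma-voom, the 2-line fit, and without vector 1 or 2 or WT 1 or 2, adjusted p = 0.0601 to 0.177) and the other in 3 (without vector 3 or mimetic 1 or 2, adjusted p = 0.0853 to 0.143). Col15a1 fell in WT (log2 fold change -1.65, SE 0.55, adjusted p = 0.0126). That call rests on low counts, 17, 12 and 14 in the vector libraries and 3, 4 and 5 in WT. Col20a1 also fell in WT (adjusted p = 0.0138), a call lost without vector 1 (log2 fold change -0.74, adjusted p = 0.0935) or WT 2 (log2 fold change -0.69, adjusted p = 0.0958). Col23a1 rose in deficient (adjusted p = 0.0209), a call lost without vector 3 (log2 fold change 0.92, adjusted p = 0.0961) or deficient 1 (log2 fold change 1.02, adjusted p = 0.0903). Col14a1 and Col17a1 were not called against vector in any line.

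**Figure D4:**
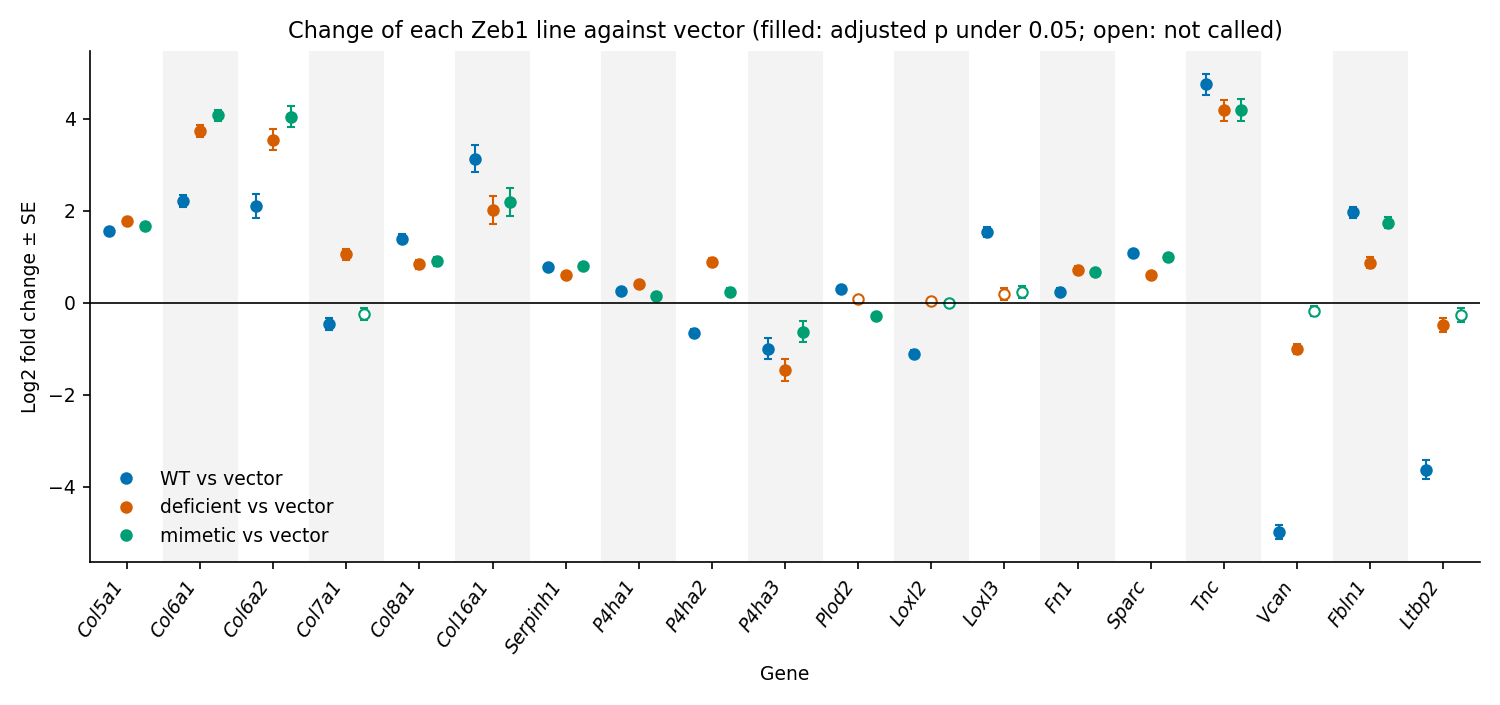
Log2 fold change against vector in WT, deficient and mimetic for the 19 genes described in full (points, with bars of 1 SE; filled points are called at an adjusted p under 0.05). Vcan and Ltbp2 lie furthest below 0 in WT, and Tnc, Col6a1, Col6a2 and Col16a1 lie far above 0 in all 3.

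Among the 10 tested enzymes and chaperones that modify procollagen, 5 rose and 2 fell in WT (31% and 33.6% of all genes), 5 rose and 1 fell in deficient (28.4% and 29.8%) and 6 rose and 2 fell in mimetic (28.6% and 30.9%), and only the fall of P4ha3 in deficient reached 2-fold. Serpinh1, the collagen chaperone, stood at 125, 112 and 128 CPM in the vector libraries, 210.1, 205 and 210.2 with WT, 181, 190.3 and 186 with deficient and 211, 207 and 214 with mimetic Zeb1. All Zeb1 libraries were above all vector libraries. Serpinh1 rose 1.71-fold (log2 fold change 0.78, SE 0.05, adjusted p = 9.27e-12) in WT, 1.53-fold (log2 fold change 0.61, SE 0.05, adjusted p = 7.18e-10) in deficient and 1.73-fold (log2 fold change 0.79, SE 0.05, adjusted p = 9.93e-12) in mimetic. Plod2, the lysyl hydroxylase that acts on collagen telopeptides, stood at 75.5, 75.2 and 74.1 CPM in the vector libraries, 90.6, 90.8 and 95.5 with WT, 83.1, 82.7 and 73.8 with deficient and 67.3, 61.3 and 56 with mimetic Zeb1. WT was highest and mimetic lowest, without overlap. Plod2 rose in WT (log2 fold change 0.30, SE 0.06, adjusted p = 0.000198) and fell in mimetic (log2 fold change -0.28, SE 0.06, adjusted p = 0.000492), and was not called in deficient (log2 fold change 0.09, SE 0.06, adjusted p = 0.201). Without deficient 3 it was called higher in deficient (log2 fold change 0.15, adjusted p = 0.0473). Mimetic was 1.5-fold below WT (log2 fold change -0.59, SE 0.06, adjusted p = 1.84e-07).

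P4ha1, P4ha2 and P4ha3, the catalytic subunits of prolyl 4-hydroxylase, differed in level and in the direction of change. P4ha1 stood at 80.0, 79.4 and 83.1 CPM in the vector libraries, 93.8, 99.6 and 96.8 with WT, 108, 109 and 105 with deficient and 91.9, 92.9 and 85.6 with mimetic Zeb1. The spread was small and the rises modest, 1.2-fold (log2 fold change 0.26, SE 0.05, adjusted p = 6.17e-05) in WT, 1.33-fold (log2 fold change 0.41, SE 0.05, adjusted p = 2.41e-07) in deficient and 1.11-fold (log2 fold change 0.16, SE 0.05, adjusted p = 0.0072) in mimetic. Deficient also exceeded WT (log2 fold change 0.15, SE 0.05, adjusted p = 0.00995), a call lost without WT 1 (log2 fold change 0.12, adjusted p = 0.089). P4ha2 stood at 15, 15.5 and 17.6 CPM in the vector libraries, 10.8, 9.7 and 9.9 with WT, 28.1, 29.5 and 31.2 with deficient and 19.3, 19 and 18.1 with mimetic Zeb1. Deficient was highest and WT lowest, and neither overlapped another line. P4ha2 fell 1.58-fold (log2 fold change -0.66, SE 0.09, adjusted p = 1.40e-06) in WT and rose 1.85-fold (log2 fold change 0.88, SE 0.08, adjusted p = 1.17e-08) in deficient, and deficient was 2.92-fold above WT (log2 fold change 1.55, SE 0.09, adjusted p = 5.64e-12). The rise in mimetic was small (log2 fold change 0.23, SE 0.08, adjusted p = 0.0249) and its call was lost without vector 1, vector 2, mimetic 1 or mimetic 2 (log2 fold change 0.18 to 0.22, adjusted p = 0.063 to 0.109). Mimetic was below deficient (log2 fold change -0.66, SE 0.08, adjusted p = 3.63e-06) and above WT (log2 fold change 0.89, SE 0.09, adjusted p = 8.20e-08).

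P4ha3 was the least abundant of the 3 and stood at 5.84, 6.09 and 4.49 CPM in the vector libraries, 3.19, 2.49 and 2.53 with WT, 1.75, 1.43 and 2.79 with deficient and 2.83, 3.02 and 4.71 with mimetic Zeb1. It fell just under 2-fold (log2 fold change -0.999, SE 0.22, adjusted p = 0.000601) in WT and 2.75-fold (log2 fold change -1.46, SE 0.23, adjusted p = 1.90e-05) in deficient. In mimetic the fall was smaller (log2 fold change -0.63, SE 0.22, adjusted p = 0.0197) and was not called without vector 1, vector 2, mimetic 1 or mimetic 2 (log2 fold change -0.49 to -0.58, adjusted p = 0.0633 to 0.0952). Mimetic exceeded deficient (log2 fold change 0.83, SE 0.25, adjusted p = 0.0152), a call lost without deficient 1, deficient 2 or mimetic 3 (adjusted p = 0.0573 to 0.128). The other lysyl hydroxylases changed little. Plod1 rose in WT (adjusted p = 0.0401) and in deficient (adjusted p = 0.00732), calls lost in 4 fits (without vector 1 or 2 or WT 1 or 3, adjusted p = 0.0773 to 0.134) and in 1 fit (without deficient 3, log2 fold change 0.17, adjusted p = 0.051). Plod3 rose in deficient (log2 fold change 0.26, SE 0.06, adjusted p = 0.000506) and mimetic (log2 fold change 0.31, SE 0.06, adjusted p = 9.46e-05). It shares exonic bases with Znhit1 on the opposite strand, at least 8845 bases from the 3' end of Plod3. Znhit1 also rose in deficient (log2 fold change 0.27, SE 0.08, adjusted p = 0.00623) and mimetic (log2 fold change 0.42, SE 0.08, adjusted p = 0.000131). In WT it rose too (log2 fold change 0.21, SE 0.08, adjusted p = 0.023). Its part in the Plod3 counts was not tested. Of the prolyl 3-hydroxylase family, P3h3 rose in WT (log2 fold change 0.84, SE 0.22, adjusted p = 0.00233), P3h1 in mimetic (log2 fold change 0.33, SE 0.08, adjusted p = 0.00103) and P3h4 in mimetic (log2 fold change 0.45, SE 0.08, adjusted p = 3.80e-05).

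The lysyl oxidase-like genes, whose products crosslink collagen and elastin, moved in different directions in WT, Loxl3 up and Loxl2 and Loxl4 down. Loxl2 (chr14:69609068-69695834) stood at 34, 35.1 and 32.5 CPM in the vector libraries, 16.2, 16.3 and 14.7 with WT, 37.4, 33.4 and 33.6 with deficient and 35.3, 33.4 and 32.9 with mimetic Zeb1. WT was below the other 3 lines, which overlapped. Loxl2 fell 2.15-fold (log2 fold change -1.11, SE 0.07, adjusted p = 3.91e-11) in WT, while deficient (log2 fold change 0.04, SE 0.07, adjusted p = 0.641) and mimetic (log2 fold change -0.0001, SE 0.07, adjusted p = 0.999) were not called against vector. Deficient was 2.21-fold and mimetic 2.15-fold above WT (adjusted p = 4.70e-11 and 2.05e-10). Loxl3 (chr6:83034173-83052562) stood at 5.38, 5.04 and 4.99 CPM in the vector libraries, 13.7, 15 and 16.1 with WT, 4.98, 6.52 and 6.13 with deficient and 5.94, 6.5 and 5.6 with mimetic Zeb1. WT was the high line here. Loxl3 rose 2.9-fold (log2 fold change 1.54, SE 0.12, adjusted p = 4.92e-10) in WT and was not called in deficient (log2 fold change 0.19, SE 0.13, adjusted p = 0.198) or mimetic (log2 fold change 0.23, SE 0.13, adjusted p = 0.135). With library size only it was called higher in mimetic (log2 fold change 0.30, adjusted p = 0.0491). Loxl3 shares 535 exonic bases with Htra2 on the opposite strand, beginning 20 bases from the 3' end of Loxl3, and Htra2 also rose in WT, from 59.9 to 99.2 CPM (log2 fold change 0.73, SE 0.06, adjusted p = 1.35e-09). The counting strand is not stated, so reads of the 2 genes cannot be told apart. Loxl4, the most abundant of the 3, was 114 ± 2.07 CPM for vector, 103 ± 4.42 for WT, 146 ± 4.01 for deficient and 92.4 ± 1.86 for mimetic. It rose in deficient (log2 fold change 0.36, SE 0.04, adjusted p = 6.19e-07), fell in mimetic (log2 fold change -0.30, SE 0.04, adjusted p = 6.99e-06) and fell slightly in WT (log2 fold change -0.15, SE 0.04, adjusted p = 0.00677), the last call being lost without WT 1 (log2 fold change -0.12, adjusted p = 0.0502).

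Of the 7 tested matrix glycoproteins, 4 rose and 2 fell in WT (31% and 33.6% of all genes), 5 rose and 1 fell in deficient (28.4% and 29.8%) and 6 rose and 0 fell in mimetic (28.6% and 30.9%). Fn1, fibronectin, stood at 528, 582 and 418 CPM in the vector libraries, 608, 625 and 569.5 with WT, 812, 817 and 876 with deficient and 756, 794 and 865 with mimetic Zeb1. Deficient and mimetic were above vector and WT. Fn1 rose 1.64-fold (log2 fold change 0.71, SE 0.08, adjusted p = 1.84e-07) in deficient and 1.58-fold (log2 fold change 0.66, SE 0.08, adjusted p = 4.72e-07) in mimetic. The rise in WT was smaller (log2 fold change 0.24, SE 0.08, adjusted p = 0.0124) and was not called without vector 3 (log2 fold change 0.12, adjusted p = 0.0599). Sparc, a collagen-binding glycoprotein, stood at 203, 201 and 210.5 CPM in the vector libraries, 428, 435 and 428 with WT, 303, 319.5 and 313 with deficient and 404, 416 and 410.3 with mimetic Zeb1. WT and mimetic were highest, deficient was in between, and vector was lowest without overlap. It rose 2.1-fold (log2 fold change 1.07, SE 0.04, adjusted p = 1.68e-15) in WT, 1.52-fold (log2 fold change 0.61, SE 0.04, adjusted p = 3.08e-11) in deficient and 2-fold (log2 fold change 1.00, SE 0.04, adjusted p = 8.41e-15) in mimetic. Mimetic exceeded deficient (log2 fold change 0.40, SE 0.04, adjusted p = 8.25e-08).

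Tnc, tenascin-C (chr4:63959785-64047015), had the largest rise of any glycoprotein of the set in WT. Counts in the vector libraries were 12, 7 and 15, and levels were 0.363, 0.215 and 0.396 CPM in the vector libraries, 10.0, 8.09 and 8.69 with WT, 5.49, 5.71 and 6.9 with deficient and 6.06, 7.06 and 5.07 with mimetic Zeb1. Every Zeb1 library was at least an order of magnitude above every vector library. Tnc rose 26.9-fold (log2 fold change 4.75, SE 0.22, adjusted p = 1.59e-13) in WT, 18.2-fold (log2 fold change 4.18, SE 0.23, adjusted p = 4.10e-12) in deficient and 18.2-fold (log2 fold change 4.19, SE 0.23, adjusted p = 3.70e-12) in mimetic. Deficient (log2 fold change -0.56, SE 0.15, adjusted p = 0.00304) and mimetic (log2 fold change -0.56, SE 0.15, adjusted p = 0.00467) were below WT, and the difference between them was not called (log2 fold change 0.01, SE 0.15, adjusted p = 0.981).

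Vcan and Ltbp2 had the opposite pattern, a loss in WT that was far smaller in the lines labelled deficient and mimetic. Vcan encodes versican, a large chondroitin sulfate proteoglycan (chr13:89655312-89742509), and Ltbp2 encodes a microfibril protein of the LTBP family (chr12:84783212-84876532). Their promoter windows are shown for that shared pattern, with E-box letters in capitals.
Vcan promoter, chr13:89742463-89742762, minus strand: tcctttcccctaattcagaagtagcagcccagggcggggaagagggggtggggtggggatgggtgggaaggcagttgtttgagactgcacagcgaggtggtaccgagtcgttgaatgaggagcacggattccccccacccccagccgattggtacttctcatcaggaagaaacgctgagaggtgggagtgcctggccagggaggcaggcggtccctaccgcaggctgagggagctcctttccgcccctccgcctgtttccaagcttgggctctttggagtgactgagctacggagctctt
Ltbp2 promoter, chr12:84876442-84876741, minus strand: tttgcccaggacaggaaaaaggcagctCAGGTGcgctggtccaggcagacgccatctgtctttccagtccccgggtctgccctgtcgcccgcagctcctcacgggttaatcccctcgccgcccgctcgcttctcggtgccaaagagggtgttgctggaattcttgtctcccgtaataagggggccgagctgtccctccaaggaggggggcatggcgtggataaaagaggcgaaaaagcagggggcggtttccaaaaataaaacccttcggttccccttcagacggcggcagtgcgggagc
The Ltbp2 window holds CAGGTG with its first base at position -223 from the start site, and the Vcan window holds neither motif. Over 42 tested members, 9 of 50 full-length promoter windows (18%) held CAGGTG or CAGGTA on either strand, beside 29.5% of 32851 windows of 27025 genes. Those 27025 RefSeq genes were not limited to the genes tested here, so the shares are not of like sets. Members with such a window were Col16a1, Col17a1, Col4a4, Col8a1, Ltbp2, Ltbp4, Sparc and Thbs2. A match is a description of letters and not of binding.

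Vcan stood at 41.6, 46.4 and 33.8 CPM in the vector libraries, 1.7, 1.16 and 0.997 with WT, 21.4, 19.8 and 19 with deficient and 33.5, 33.5 and 40.2 with mimetic Zeb1. All WT libraries were below 2 CPM, deficient libraries lay between WT and the rest without overlap, and mimetic and vector libraries overlapped. Vcan fell 31.6-fold (log2 fold change -4.98, SE 0.16, adjusted p = 2.65e-16) in WT and 2.02-fold (log2 fold change -1.01, SE 0.11, adjusted p = 1.11e-07) in deficient, and mimetic was not called (log2 fold change -0.18, SE 0.11, adjusted p = 0.149). Mimetic was called lower than vector without vector 3 (log2 fold change -0.30, adjusted p = 0.0106) or mimetic 3 (log2 fold change -0.27, adjusted p = 0.0496). Against WT, Vcan was 15.6-fold higher in deficient (log2 fold change 3.97, SE 0.16, adjusted p = 5.77e-14) and 27.8-fold higher in mimetic (log2 fold change 4.80, SE 0.16, adjusted p = 4.46e-15), and mimetic was above deficient (log2 fold change 0.83, SE 0.11, adjusted p = 8.14e-06). Ltbp2 stood at 6.93, 7.38 and 7.84 CPM in the vector libraries, 0.624, 0.736 and 0.392 with WT, 5.34, 4.63 and 5.93 with deficient and 6.7, 5.23 and 6.48 with mimetic Zeb1. Every WT library was under 1 CPM and every other library above 4. Ltbp2 fell 12.4-fold (log2 fold change -3.63, SE 0.20, adjusted p = 2.80e-12) in WT. The fall in deficient was small (log2 fold change -0.48, SE 0.15, adjusted p = 0.00839) and was not called without deficient 2 (log2 fold change -0.39, adjusted p = 0.0505), and mimetic was not called (log2 fold change -0.27, SE 0.15, adjusted p = 0.124). Deficient was 8.87-fold and mimetic 10.3-fold above WT (adjusted p = 9.77e-11 and 7.40e-11).

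The thrombospondins, glycoproteins that bind cells and growth factors, were led by Thbs1, at 55.4 ± 3.64 CPM for vector, 46.6 ± 0.866 for WT, 89.8 ± 2.94 for deficient and 65 ± 5.58 for mimetic. Thbs1 fell in WT (log2 fold change -0.25, SE 0.06, adjusted p = 0.00179) and rose in deficient (log2 fold change 0.70, SE 0.06, adjusted p = 6.62e-09) and mimetic (log2 fold change 0.23, SE 0.06, adjusted p = 0.00333). Thbs2 had 15, 15 and 1 counts in the vector libraries and 58, 64 and 37 in mimetic. It was called higher in mimetic (log2 fold change 2.70, SE 0.50, adjusted p = 0.000106), a fold that limma-voom moved to 3.30 on the log2 scale. Calls of Thbs2 in WT (adjusted p = 0.0376) and deficient (adjusted p = 0.0351) were each lost in 4 alternatives, among them the fit without vector 3 (adjusted p = 0.156 and 0.145). Thbs3, which shares exonic bases with Mtx1, rose in mimetic (log2 fold change 0.28, SE 0.09, adjusted p = 0.0135), a call lost without vector 1 (log2 fold change 0.23, adjusted p = 0.0664).

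The 6 fibulins and LTBPs were tested in full, and 3 rose and 3 fell in WT (31% and 33.6% of all genes), 3 rose and 2 fell in deficient (28.4% and 29.8%) and 3 rose and 1 fell in mimetic (28.6% and 30.9%). Fbln1, an elastic fibre and basement membrane protein, stood at 4.08, 4.49 and 4.46 CPM in the vector libraries, 16.4, 16.4 and 18.2 with WT, 7.51, 9.32 and 7.06 with deficient and 14.4, 13.3 and 15.8 with mimetic Zeb1. WT and mimetic were highest, deficient was in between and vector was lowest. It rose 3.9-fold (log2 fold change 1.97, SE 0.12, adjusted p = 7.73e-12) in WT, 1.83-fold (log2 fold change 0.87, SE 0.12, adjusted p = 3.88e-06) in deficient and 3.33-fold (log2 fold change 1.74, SE 0.12, adjusted p = 1.04e-10) in mimetic, and mimetic exceeded deficient (log2 fold change 0.86, SE 0.11, adjusted p = 5.96e-06). Fbln2 was 187 ± 11.6 CPM for vector, 353 ± 11.9 for WT, 360.0 ± 8.38 for deficient and 284 ± 9.89 for mimetic, a rise in all 3 lines (adjusted p = 6.04e-13, 7.19e-13 and 7.91e-10). Ltbp1, the abundant carrier of latent TGF-beta, was 711 ± 14.6 CPM for vector, 817 ± 5.66 for WT, 841 ± 15.2 for deficient and 902 ± 21.1 for mimetic. It rose modestly in WT (log2 fold change 0.20, SE 0.04, adjusted p = 7.29e-05), deficient (log2 fold change 0.24, SE 0.04, adjusted p = 1.06e-05) and mimetic (log2 fold change 0.34, SE 0.04, adjusted p = 9.18e-08). Ltbp4 fell in WT (log2 fold change -0.32, SE 0.07, adjusted p = 0.000729), deficient (log2 fold change -0.48, SE 0.07, adjusted p = 1.00e-05) and mimetic (log2 fold change -0.27, SE 0.07, adjusted p = 0.00297).

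**Figure D5:**
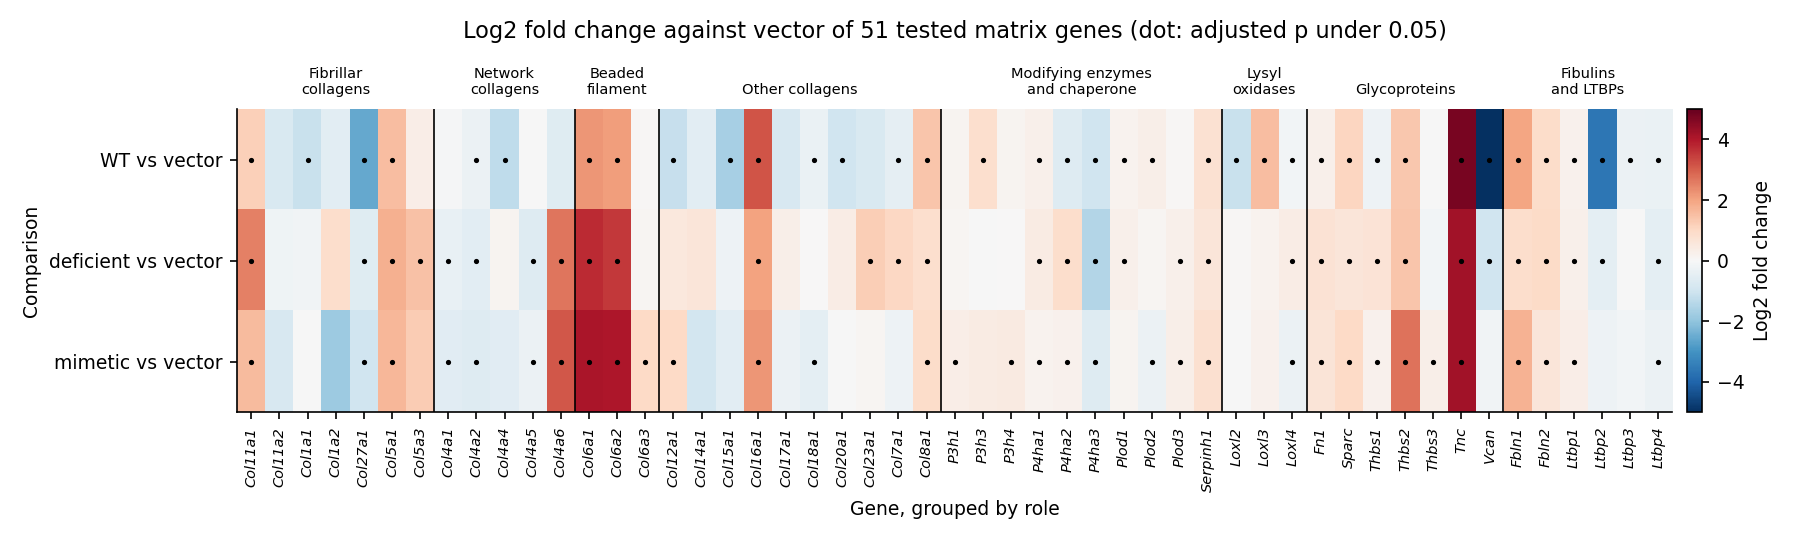
Heat map of the log2 fold change against vector (colour) of the 51 tested matrix genes, ordered by role, in WT, deficient and mimetic (rows), with a dot where the adjusted p is under 0.05. Vcan and Ltbp2 are deep blue in the WT row, and Tnc, Col6a1, Col6a2 and Col16a1 are red in all 3 rows.

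Genes that act beside the set were followed in lists of other matrix genes, and each comparison with vector is given in the order WT, deficient, mimetic. Of 19 tested genes of collagen maturation and secretion, 9 rose and 7 fell in WT (31% and 33.6% of all genes), 7 rose and 6 fell in deficient (28.4% and 29.8%) and 9 rose and 7 fell in mimetic (28.6% and 30.9%). Their median log2 fold changes were 0.08, -0.04 and 0.13. Pcolce2, an enhancer of procollagen C-proteinase, was 33.9 ± 1.28 CPM for vector, 77.2 ± 2.88 for WT, 55 ± 2.41 for deficient and 60.0 ± 2.97 for mimetic (adjusted p = 3.01e-13 in WT). Bmp1, that proteinase, was 40.5 ± 1.35 CPM for vector, 53.5 ± 2.73 for WT, 79.9 ± 2.11 for deficient and 71.8 ± 3.39 for mimetic (adjusted p = 6.87e-12 in deficient). Both rose in all 3 lines, as did the retrieval receptor Kdelr3, which was 5.82 ± 0.753 CPM for vector, 12.8 ± 0.661 for WT, 13.9 ± 0.822 for deficient and 11.5 ± 0.74 for mimetic. Of 11 proteoglycans, 3 rose and 6 fell in WT (31% and 33.6% of all genes), 4 rose and 1 fell in deficient (28.4% and 29.8%) and 3 rose and 3 fell in mimetic (28.6% and 30.9%). Their medians were -0.14, 0.08 and -0.03. Sdc3, a syndecan, was 15.1 ± 0.584 CPM for vector, 93.7 ± 6.55 for WT, 52.1 ± 5.64 for deficient and 68.8 ± 3.26 for mimetic and rose in each (log2 fold change 2.63, SE 0.08, adjusted p = 8.38e-17 in WT). Bgn, biglycan, was 140.4 ± 19.5 CPM for vector, 252 ± 12.1 for WT, 251 ± 24.2 for deficient and 303 ± 17.9 for mimetic and also rose in each. Agrn, a basement membrane proteoglycan, fell in WT (log2 fold change -0.67, SE 0.08, adjusted p = 2.52e-07) and mimetic (log2 fold change -0.24, SE 0.08, adjusted p = 0.0101) and was not called in deficient (adjusted p = 0.305).

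Of 19 other elastic fibre and matrix glycoproteins, 11 rose and 6 fell in WT (31% and 33.6% of all genes), 10 rose and 4 fell in deficient (28.4% and 29.8%) and 11 rose and 4 fell in mimetic (28.6% and 30.9%). Their medians were 0.67, 0.47 and 0.60. Tgfbi, a TGF-beta induced adhesion protein, was 0.284 ± 0.122 CPM for vector, 9.35 ± 0.599 for WT, 11.7 ± 0.556 for deficient and 15.4 ± 0.669 for mimetic and rose in each line (log2 fold change 4.99, SE 0.19, adjusted p = 3.90e-15 in WT and log2 fold change 5.72, SE 0.18, adjusted p = 4.77e-16 in mimetic). The matricellular genes Cyr61 and Wisp1 rose in each line too, with Cyr61 at 47.2 ± 2.12 CPM for vector, 81.6 ± 5.46 for WT, 175 ± 11.8 for deficient and 164 ± 6.6 for mimetic and Wisp1 at 1.26 ± 0.212 CPM for vector, 9.33 ± 1.56 for WT, 22.6 ± 0.79 for deficient and 14.8 ± 1.26 for mimetic. Of 16 matrix receptors, 2 rose and 7 fell in WT (31% and 33.6% of all genes), 6 rose and 6 fell in deficient (28.4% and 29.8%) and 4 rose and 6 fell in mimetic (28.6% and 30.9%). Their medians were -0.27, 0.10 and -0.10. Ddr2, a receptor for fibrillar collagen, was 63.3 ± 7.45 CPM for vector, 0.845 ± 0.0242 for WT, 5.26 ± 0.335 for deficient and 7.18 ± 0.596 for mimetic. It fell in WT (log2 fold change -6.22, SE 0.13, adjusted p = 3.05e-19), deficient (log2 fold change -3.59, SE 0.10, adjusted p = 8.50e-17) and mimetic (log2 fold change -3.14, SE 0.10, adjusted p = 4.24e-16). Itga2, the alpha chain of a collagen-binding integrin, was 102 ± 4.87 CPM for vector, 36.7 ± 1.27 for WT, 68.6 ± 2.59 for deficient and 39.5 ± 1.9 for mimetic, and Itgb3 was 72.4 ± 1.4 CPM for vector, 37.2 ± 0.908 for WT, 52.8 ± 2.66 for deficient and 57.3 ± 3.1 for mimetic. Both fell in all 3 lines.

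Of 18 matrix proteases and their inhibitors, 4 rose and 8 fell in WT (31% and 33.6% of all genes), 8 rose and 3 fell in deficient (28.4% and 29.8%) and 9 rose and 3 fell in mimetic (28.6% and 30.9%). Their medians were -0.16, 0.34 and 0.40. Timp3, a matrix-bound metalloproteinase inhibitor, was 0.2 ± 0.0953 CPM for vector, 8.08 ± 0.75 for WT, 16.7 ± 2.2 for deficient and 38.4 ± 2.11 for mimetic and rose in each line (log2 fold change 5.29, SE 0.22, adjusted p = 1.76e-14 in WT and log2 fold change 7.54, SE 0.19, adjusted p = 9.85e-18 in mimetic). Mmp11 was 12 ± 0.527 CPM for vector, 29.8 ± 0.106 for WT, 21.5 ± 0.734 for deficient and 22.2 ± 2.01 for mimetic and rose in each. Htra1, a secreted serine protease, was 208 ± 10.2 CPM for vector, 124 ± 5.31 for WT, 269.8 ± 2.45 for deficient and 240.5 ± 6.17 for mimetic, falling in WT and rising in deficient and mimetic (adjusted p = 9.82e-12, 3.48e-07 and 0.000364). Of 13 TGF-beta ligands, receptors and response genes, 4 rose and 7 fell in WT (31% and 33.6% of all genes), 8 rose and 5 fell in deficient (28.4% and 29.8%) and 5 rose and 5 fell in mimetic (28.6% and 30.9%). Their medians were -0.22, 0.25 and -0.02. Tgfbr3, a co-receptor, was 12.3 ± 1.63 CPM for vector, 0.26 ± 0.145 for WT, 2.05 ± 0.324 for deficient and 5.87 ± 0.338 for mimetic and fell in each (log2 fold change -5.54, SE 0.24, adjusted p = 3.77e-14 in WT). Tgfbr1, a signalling receptor, was 59.1 ± 2.19 CPM for vector, 108 ± 2.48 for WT, 94.4 ± 5.15 for deficient and 117 ± 3.18 for mimetic and rose in each.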

How the data were processed

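The authors deposited 1 table of raw counts per gene, with 1 column per library, made from QuantSeq 3' libraries; per the submitters' processing notes, the aligner was STAR and the build mm10, and the sources used here do not give versions, the counting tool, its strand setting or the annotation. The smallest count in the table is 1, so genes with 0 counts in any library were not analysed here.

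The counts were tested with edgeR 4.0.16 (R 4.3.3) after filterByExpr (181 of 12208 genes removed) and TMM scaling, in 1 quasi-likelihood fit over all 12 libraries with a coefficient per line and 6 contrasts. Benjamini-Hochberg adjustment covered all 12027 tested genes, two-sided. The SE is the log2 fold change divided by the square root of F. Alternatives were RLE factors, library size only, DESeq2 1.42.0, limma-voom (limma 3.58.1), no filter, at least 5 CPM in 3 libraries, the 2 lines alone, a replicate block, a 2-fold minimum, and leaving out each library.

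The members, the gene lists and the comparisons were chosen with earlier results of these data known. Per-library values are given for 10 genes chosen by name (Fn1, Sparc, Tnc, Vcan, Serpinh1, Lox, Loxl2, Plod2, P4ha1 and P4ha2; Lox was not analysed here) and for members whose highest line averaged at least 5 CPM and a called change of at least 2-fold. From each other list, up to 3 genes with the smallest adjusted p against vector and at least 5 CPM are named; Col4a1, Col4a2 and other members outside the rule were described after their values were seen. Coordinates are from GENCODE M21, whose assembly, GRCm38, is that of mm10, and promoters, found for 43 members, are from RefSeq. The procedure was tested on simulated counts. Libraries of a line were compared by chi-square over genes (means of 2.99 to 23.9, with library 3 farthest from the others in vector and in deficient), and none looked like a copy of another. Some single-gene results are not reported here.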

Additional observations from a re-analysis of the deposited data

Results flagged for a closer look

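Col12a1, Col7a1, Loxl4, P4ha2, Plod2 and Thbs1 were called in opposite directions against vector in 2 of the Zeb1 lines, and edgeR's quasi-likelihood test called the difference between those lines. The genes were picked by those opposite calls in the same libraries, so a called difference follows largely from the pick. The share of all genes with such opposite calls is not given here. P4ha2, a prolyl 4-hydroxylase subunit, fell in WT and rose in deficient and mimetic, and the log2 difference was 1.55 (SE 0.09, adjusted p = 5.64e-12) for deficient against WT and 0.89 (SE 0.09, adjusted p = 8.20e-08) for mimetic against WT. Thbs1, thrombospondin 1, had the same signs, with 0.94 (SE 0.06, adjusted p = 9.23e-11) for deficient against WT and 0.48 (SE 0.06, adjusted p = 3.85e-06) for mimetic against WT. Col7a1, the anchoring fibril collagen, fell in WT and rose in deficient, a log2 difference of 1.52 (SE 0.13, adjusted p = 2.85e-09). Col12a1, a fibril-associated collagen under 2 CPM, fell in WT and rose in mimetic, a log2 difference of 2.15 (SE 0.44, adjusted p = 0.000446), though both calls against vector were lost in some alternatives. Loxl4, a crosslinking enzyme, rose in deficient and fell in both other lines, with 0.50 (SE 0.04, adjusted p = 6.84e-09) for deficient against WT and -0.66 (SE 0.04, adjusted p = 6.79e-10) for mimetic against deficient. Plod2, a lysyl hydroxylase, rose in WT and fell in mimetic, a log2 difference of -0.59 (SE 0.06, adjusted p = 1.84e-07). The libraries of the lines compared did not overlap in any of these 9 differences, which also follows largely from the pick. All comparisons with vector share the vector libraries. The P4ha2 rise in mimetic was not called without vector 1, vector 2, mimetic 1 or mimetic 2, and the Loxl4 fall in WT was not called without WT 1.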

How the results depend on the processing

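Over the 19 members described in full and the 6 comparisons, 90 of 114 results were called, and 83 of these kept their call under every alternative that tested them. Most of the 19 were picked for a called change of at least 2-fold and at least 5 CPM. Many calls, and many kept calls, are therefore partly set by that choice, and the share for all genes is not given here. Of 1256 alternative values of called results, 18 lost the call and 0 changed direction. Of 334 alternative values of uncalled results, 11 became called. Over all 51 tested members, 157 of 196 calls were kept in every alternative, 39 were lost in at least 1 and 0 reversed.

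With the 2-fold minimum the counts of members higher and lower were 11 and 9 in WT, 11 and 2 in deficient and 11 and 0 in mimetic against vector, 1 and 2 in mimetic against deficient, 10 and 1 in mimetic against WT, and 16 and 3 in deficient against WT. With at least 5 CPM in 3 libraries, which tests fewer genes, 11 members were lower in WT against vector, 13 were higher in mimetic and 15 in deficient against WT, and the median log2 fold change was 0.15 in WT against vector, 0.0608 in mimetic against WT and 0.0658 in deficient against WT. Shares of all genes under that filter are not given here. With library size only, the median in mimetic against vector was 0.30, and the share of all called genes that were higher moved from 48% to 59.1% in mimetic against vector, 45.8% to 56.8% in mimetic against deficient and 51.5% to 63.9% in mimetic against WT. Leaving out each library in turn gave medians of 0.27 to 0.50 in deficient and 0.15 to 0.22 in mimetic against vector, the extremes without vector 1 and without mimetic 2.

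Uncalled values near 0 changed sign. Loxl2 ran from -0.0155 to 0.0679 when each library was left out in deficient against vector. In mimetic against vector, Loxl2 ran from -0.0305 to 0.025 when each library was left out and was 0.0056 with RLE size factors, 0.0736 with library size only, 0.0056 with DESeq2, 0.0006 with limma-voom, 0.0169 with at least 5 CPM in 3 libraries and 0.0073 with only the 2 lines compared. In mimetic against deficient, Loxl2 ran from -0.0696 to 0.0147 when each library was left out, Tnc ran from -0.118 to 0.123 when each library was left out and was -0.0003 with at least 5 CPM in 3 libraries, Loxl3 ran from -0.0747 to 0.116 when each library was left out, Col8a1 ran from -0.0085 to 0.134 when each library was left out, and Col16a1 ran from -0.155 to 0.469 when each library was left out. Serpinh1 ran from -0.0043 to 0.0263 when each library was left out in mimetic against WT. The cause was not tested.

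Libraries with the same replicate number did not deviate together (correlations -0.0847 to 0.132, with 5 of 12 libraries correlating best with their own number), so the numbers are not read as pairs. With the replicate block, 19 members were higher and 18 lower in WT against vector, and 24 and 7 in deficient against vector. Shares of all genes in that fit are not given here. The block kept every call of the 19 members described in full.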
